A study of Mus musculus with 16 samples.

Results

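The comparison sets non-tumour liver of mice with a MYC and a REG3A transgene against non-tumour liver of mice with the MYC transgene alone. It asks whether REG3A alters the transcripts of liver tissue that has not turned into tumour. The 8 arrays whose titles name non-tumour liver of either genotype were taken, out of 16 in the series; the other 8 hold tumours of the same mice. On them lie 23521 transcript rows that the probe annotation ties to exactly 1 gene symbol, out of 41345 rows in the table.

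The 4 MYC mice carry the label MYC+/+, REG3A-/- and the 4 MYC/REG3A mice the label MYC+/+, REG3A+/+. Both groups are on a C57BL/6J background, were killed at 18 months of age, and share the MYC transgene, which woodchuck hepatitis virus sequences drive in the liver. Each of the 8 mice also gave a tumour, so the non-tumour piece came from a tumour-bearing organ. Neither group lacks MYC, so the comparison says nothing of a liver without the oncogene. The promoter and cell type that drive REG3A are not given in the sources used here. The 2 genotypes are different animals, and nothing pairs a mouse of one with a mouse of the other.

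REG3A is a secreted C-type lectin of the regenerating family that pancreatic acinar cells and gut epithelium make. It is known as an antibacterial protein that binds peptidoglycan of Gram-positive bacteria, and injured liver and liver tumours can express it. MYC is a transcription factor that drives cell growth, ribosome production and division. Non-tumour liver is mostly hepatocytes by mass, with sinusoidal endothelial cells, Kupffer cells (the resident macrophages), stellate cells (which store vitamin A and make matrix) and bile duct cells between them. Hepatocytes divide their work along the lobule, with urea synthesis and amino acid breakdown on the portal side, and many liver genes follow the circadian clock.

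No gene passed the test between the genotypes. Of 12965 genes tested with limma, 0 had a Benjamini-Hochberg adjusted p under the threshold of 0.05 (0% called), and the smallest adjusted p was 0.675. An unadjusted p under 0.05 was reached by 945 genes (7.29%), of which 355 (2.74%) had a higher and 590 (4.55%) a lower mean in MYC/REG3A livers. In 510 genes (3.93%) the 4 values of one genotype lay entirely above the 4 of the other, 212 (1.64%) with MYC/REG3A above and 298 (2.3%) with MYC above. Of all tested genes, 6326 (48.8%) had the higher mean in MYC/REG3A livers. The count of 945 moved with single mice: it was 560 (4.32%) without MYC mouse 1, 1720 (13.3%) without MYC mouse 2, 624 (4.81%) without MYC/REG3A mouse 2 and 589 (4.54%) without MYC/REG3A mouse 4. The smallest adjusted p was 0.0544 without MYC mouse 2, and 0 genes were called in any of these fits.

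Values here are log2 levels, and a difference is the mean of the MYC/REG3A livers minus that of the MYC livers, so that 1 stands for a doubling. The median difference over all tested genes was -0.005, the quartiles were -0.113 and 0.09, and the median absolute difference was 0.101. The median spread within a group (residual SD) was 0.169. The 95% interval of the difference had a median half-width of 0.265. It lay within -1 and 1 for 12321 genes (95%) and within -0.5 and 0.5 for 9458 genes (73%). These intervals are per gene, with no adjustment for the number of genes. Differences of 1 or more in size were found in 41 genes, 22 higher and 19 lower, and in 2 of these the groups did not overlap.

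**Figure D1:**
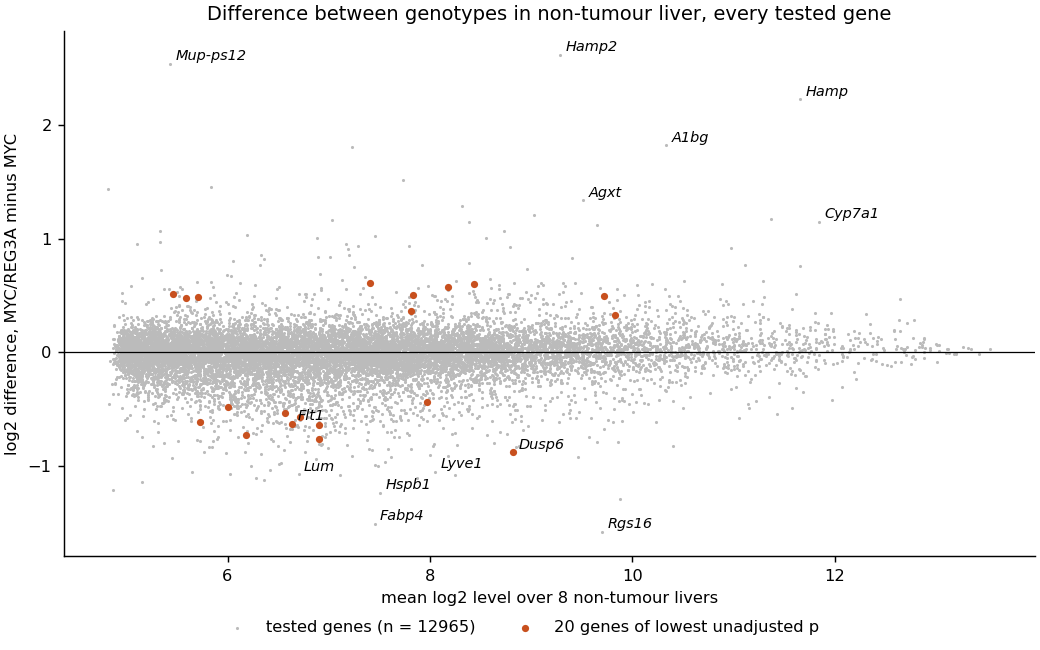
Each point is 1 of the 12965 tested genes, with its mean log2 level over the 8 non-tumour livers on the x axis and the log2 difference between genotypes on the y axis; orange points are the 20 genes of lowest unadjusted p. Their differences lie between 0.328 and 0.881 in size, while Hamp2, with the largest difference at 2.62, is not among them.

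The 8 livers did not separate by genotype. On the first principal component, with 34.7% of the variance, MYC livers 1 to 4 lay at -19.39, 18.65, -20.67 and -11.36 and MYC/REG3A livers 1 to 4 at -11.63, 21.7, 17.3 and 5.39. The second component held 25.8%, and the genotype accounted for 18.1% of the variance over all genes. Alb, the plasma albumin that marks hepatocytes, had 13.5 to 13.6 in every liver. That is near the highest value on each array (13.55 to 13.61), where a difference may not show. Afp, the fetal albumin relative that tumours can re-express, had 5.10 to 5.22, near the array medians of 4.93 to 4.97. Xist, transcribed from the inactive X chromosome of females, lay between 11.7 and 11.8 in every liver. Nnt, a mitochondrial transhydrogenase with a known deletion in C57BL/6J mice, lay between 8.05 and 8.96 with a difference of -0.26 ± 0.18 (SE).

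The transgene itself could not be checked. The array's rows are those of mouse genes, and none of the 7 mouse REG family genes passed the filter on low values. Reg1, Reg2, Reg3a, Reg3b, Reg3d, Reg3g and Reg4 had log2 levels of 2.67 to 4.17 over the 8 livers, while the lower quartile of all rows lay at 3.71 to 3.77 on these arrays. Mouse Reg3a had 2.99, 3.31, 3.10 and 3.14 in the MYC livers and 3.18, 3.34, 3.31 and 3.14 in the MYC/REG3A livers, which overlap. Reg4 had 3.54 to 3.77 in the MYC livers and 3.79 to 3.90 in the MYC/REG3A livers, without overlap, but at this level it was not tested.

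Myc had 7.92, 7.78, 7.61 and 7.41 in the MYC livers and 6.99, 9.24, 7.69 and 7.97 in the MYC/REG3A livers. Both the lowest and the highest liver were MYC/REG3A livers, and the difference was 0.29 ± 0.39 (SE), adjusted p = 0.872. Whether this mouse row also reads the transgene is not given in the sources used here. Of the 12 tested genes of the MYC network, 0 passed and the median difference was -0.048. The lowest p had Mlxip, a glucose-sensing partner in that network, at -0.39 ± 0.13, and Max, the partner MYC needs to bind DNA, at -0.18 ± 0.08. In both, picked by p, the MYC livers lay entirely above the MYC/REG3A livers, against 2.3% of all tested genes. The 25 ribosome biogenesis genes, a main output of MYC, had a median of -0.068, none with an unadjusted p under 0.05.

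The 20 genes of lowest p, 10 in each direction, were picked by that p, so their differences describe these livers and test nothing further. In all 20 the groups did not overlap, and none passed the adjustment (adjusted p = 0.675 for each). Flt1, the VEGF receptor 1 of endothelial cells, had the lowest p of all genes. Its levels were 6.77, 6.91, 6.98 and 7.14 in the MYC livers and 6.34, 6.35, 6.37 and 6.23 in the MYC/REG3A livers. The MYC/REG3A livers lay within a band narrower than the gap to the lowest MYC liver, and the difference was -0.63 ± 0.10 (SE; 95% interval -0.84 to -0.41).

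Other endothelial genes stood among the 10 lower ones. Cd93, a lectin-like receptor of endothelial and myeloid cells, had 7.54, 6.89, 7.25 and 7.23 in the MYC livers against 6.55, 6.39, 6.66 and 6.75. Esam, an adhesion molecule of endothelial junctions, had 7.08, 6.81, 6.68 and 6.77 against 6.11, 6.48, 6.33 and 6.28. In both genes every MYC liver lay above every MYC/REG3A liver. Gja1, the gap junction protein connexin 43 of non-parenchymal liver cells, had 6.87, 6.36, 6.31 and 6.64 against 5.60, 5.84, 6.11 and 5.75.

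Dusp6, a phosphatase that ERK signalling induces and that switches ERK off, had the largest difference of the 20 at -0.88 ± 0.20. The MYC livers had 9.63, 9.09, 9.36 and 8.99 and the MYC/REG3A livers 8.45, 8.45, 8.75 and 7.90. A second Dusp6 row, with a mean of only 4.09, differed by -0.11. Gpx3, a secreted glutathione peroxidase, had 7.39, 6.86, 7.39 and 7.49 against 6.48, 6.35, 6.48 and 6.78, a difference of -0.76 ± 0.15. Mcm2, a subunit of the helicase that licenses DNA replication, had 6.40, 6.08, 6.26 and 6.25 against 5.97, 5.69, 5.76 and 5.64. The remaining lower genes were Cep170, a centrosomal protein, at -0.57 ± 0.10, Enpp6, a choline-specific phosphodiesterase, at -0.61 ± 0.13, and Ube2e2, a ubiquitin-conjugating enzyme, at -0.44 ± 0.09.

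Among the 10 higher genes, Gorasp1, which stacks the Golgi, had the lowest p. It had 7.60, 7.67, 7.51 and 7.56 in the MYC livers and 8.11, 8.01, 8.01 and 8.22 in the MYC/REG3A livers, a difference of 0.50 ± 0.08. Afm encodes afamin, a vitamin E-binding plasma protein of the albumin family; it had 9.50, 9.60, 9.28 and 9.49 against 9.94, 9.99, 9.80 and 10.14. Pxmp2, a channel of the peroxisomal membrane, had 7.80, 8.17, 7.80 and 7.82 against 8.34, 8.66, 8.37 and 8.52. Dcxr, which reduces L-xylulose, had 7.80, 8.29, 8.27 and 8.18 against 8.58, 8.71, 8.80 and 8.85. In each of the 3 the lowest MYC/REG3A liver lay above the highest MYC liver.

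Aldh1b1, a mitochondrial aldehyde dehydrogenase, differed by 0.61 ± 0.15, the largest of the higher set. Spns2, a sphingosine-1-phosphate transporter, differed by 0.36 ± 0.08, and Atp6v1e1, a subunit of the vacuolar proton pump, by 0.33 ± 0.08. Lzts1 and Plek2 differed by 0.52 ± 0.12 and 0.48 ± 0.11 at log2 levels below 6. Rpl5, a large-subunit ribosomal protein with many processed copies in the genome, differed by 0.49 ± 0.11, and its row may share probes with those copies.

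**Figure D2:**
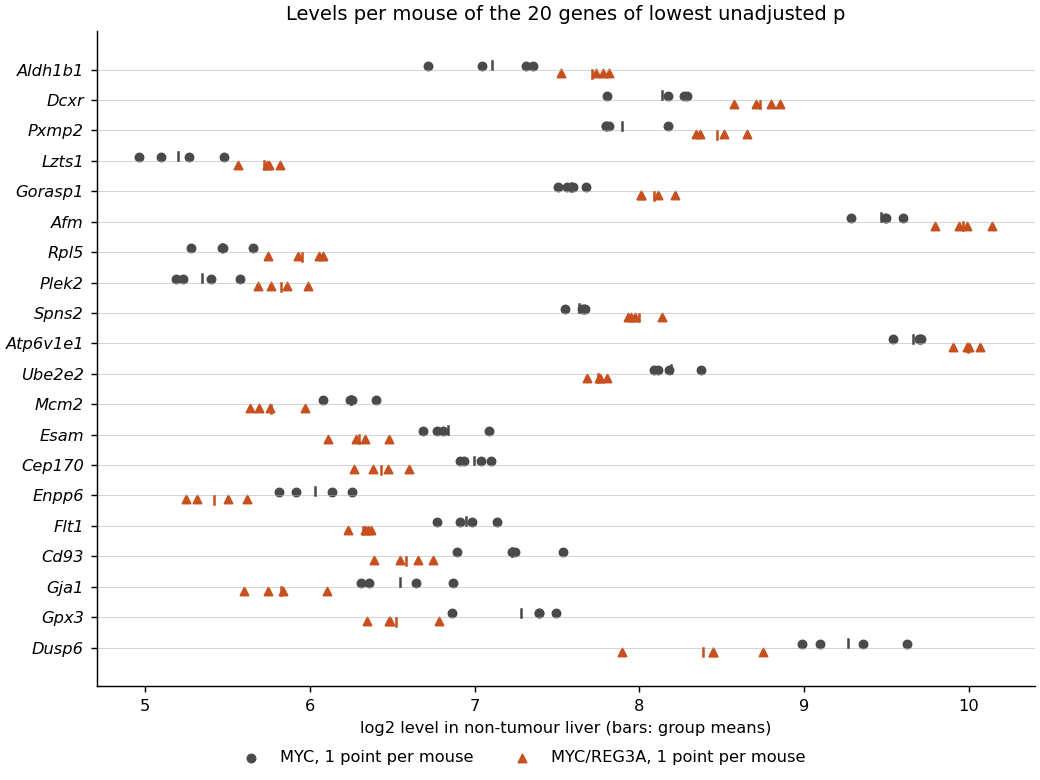
Log2 levels in non-tumour liver (x axis) of the 20 genes of lowest unadjusted p, with 1 grey circle per MYC mouse, 1 orange triangle per MYC/REG3A mouse and a bar at each group mean. In every row the triangles and circles are apart, which picking genes by lowest p makes likely. The nearest livers of the genotypes are closest in Gpx3, at 6.86 and 6.78.

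Counted as whole lists, endothelial genes had mostly lower means in MYC/REG3A livers, without passing. Genes named above, such as those of lowest p, were not taken out of these lists or of the lists below. Members of all lists were chosen with earlier results of these data known. Of the 20 sinusoidal endothelial genes tested, 19 had the lower mean, 8 with an unadjusted p under 0.05 and 0 passing, against 4.55% of all tested genes lower at that p. Their median difference was -0.327. Tek, the angiopoietin receptor, had 7.70, 7.69, 7.75 and 7.88 in the MYC livers and 7.33, 7.50, 7.62 and 7.37 in the MYC/REG3A livers. Eng, a TGF-beta co-receptor, had 10.49, 10.17, 10.05 and 10.06 against 9.43, 9.89, 9.95 and 9.68. Neither overlapped. Lyve1, the hyaluronan receptor of sinusoidal cells, had the largest difference of the list at -1.05 ± 0.33, with 8.40, 8.63, 8.08 and 9.18 against 7.49, 7.09, 8.48 and 7.03. MYC/REG3A mouse 3 lay above 2 of the MYC mice in Lyve1.

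Of 12 genes of other endothelium, 10 had the lower mean, 6 with an unadjusted p under 0.05 against the same 4.55%, and the median was -0.372. Pecam1, an adhesion molecule of all endothelium, had 7.67, 7.50, 7.63 and 8.04 against 7.32, 7.33, 7.46 and 7.30, without overlap. Emcn, a sialomucin of capillaries and veins, differed by -0.56 ± 0.18 and Cd34 by -0.61 ± 0.20. Leaving out 1 mouse moved the count of lower sinusoidal genes at that p between 3 (without MYC/REG3A mouse 4) and 15 (without MYC mouse 3). The sinusoidal median was -0.213 without MYC mouse 4, and that of other endothelium -0.244. Rspo3, the Wnt enhancer that central vein endothelium sends to pericentral hepatocytes, had 8.05, 7.35, 8.01 and 7.39 against 7.16, 7.28, 7.26 and 7.003, while the 22 pericentral and Wnt target genes had a median of -0.01, 11 on either side of 0. In bulk liver, fewer cells of a type and less RNA per cell cannot be told apart.

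Stellate cell, fibroblast and matrix genes had the lower mean in 23 of 24, 11 with an unadjusted p under 0.05 (4.55% of all tested genes were lower at that p) and 0 passing, with a median of -0.435. Lum, the collagen-binding proteoglycan lumican, had 8.18, 6.58, 7.62 and 6.57 in the MYC livers and 6.09, 6.29, 6.12 and 6.17 in the MYC/REG3A livers. The MYC/REG3A livers were close together and MYC mice 1 and 3 high. Pdgfra, a growth factor receptor of stellate cells, had 7.88, 6.93, 7.24 and 6.50 against 6.54, 6.52, 6.38 and 6.47. Vim, the mesenchymal filament vimentin, differed by -0.61 ± 0.20 and Rgs5, a pericyte gene, by -0.61 ± 0.21. A second Vim row, with a mean of 6.19, differed by -0.302, and a second Rgs5 row, with a mean of 5.20, by -0.763.

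MYC mouse 1 stood apart in this list. A list score, the median deviation of a list's genes from their mean over the 8 livers, was 0.784 in MYC mouse 1 and -0.104 to 0.218 in the other MYC mice, against -0.283 to -0.189 in the MYC/REG3A mice. Without MYC mouse 1 the median of the list was -0.249, with 7 genes lower at an unadjusted p under 0.05. Without MYC mice 1 and 3, an alternative chosen after seeing the data, it was -0.179, with 1 such gene. Without MYC/REG3A mouse 4 there were 4 such genes, and without MYC mouse 4 there were 16. The bile duct and progenitor list had a median of -0.272 over 11 genes with all mice and -0.01 without MYC mouse 1, whose score there was 0.531. How far 1 piece of tissue sets these medians was not tested beyond these values.

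Macrophage, neutrophil, MHC class II and T cell genes had mostly lower means, while B cell and NK cell genes were split. Of 23 macrophage and Kupffer cell genes 22 were lower, with a median of -0.422. Only 1 of them was at an unadjusted p under 0.05, against 4.55% of all tested genes lower at that p. That was Ccr2, the chemokine receptor that brings monocytes in, at -0.75 ± 0.31, and Ly6c2, a surface protein of such monocytes, differed by -0.82 ± 0.37. Cd68, a lysosomal protein of macrophages, had 10.38, 8.64, 9.50 and 9.82 in the MYC livers and 9.02, 8.94, 8.94 and 8.99 in the MYC/REG3A livers. The MYC/REG3A livers held almost 1 level, which lay inside the range of the MYC livers because MYC mouse 2 was low. The list score was 0.711, -0.665, 0.185 and 0.626 in MYC mice 1 to 4. Without MYC mouse 2 the median was -0.731, with 17 genes lower at that p, and without MYC mouse 1 it was -0.263, with 0.

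All 10 neutrophil genes had the lower mean (median -0.585), 1 at an unadjusted p under 0.05 against 4.55% of all tested genes lower at that p. Retnlg, a resistin-like secreted protein of neutrophils, had 5.58, 3.91, 5.89 and 6.53 against 5.27, 3.84, 3.75 and 4.21, which overlap. The count was 9 without MYC mouse 2, 7 without MYC/REG3A mouse 1, and 0 without each of the other 6 mice or with the clock score, defined with the clock genes, as a covariate. Retnlg and Ngp, another gene of the list, exceeded the array medians (4.93 to 4.97) only in MYC mice 1, 3 and 4 and MYC/REG3A mouse 1. These 2 genes thus entered the test mainly through MYC livers, where they were high. Camp, a neutrophil granule gene, stayed at 3.45 to 4.50 in all 8 livers and was not tested, nor were S100a8, S100a9 and Ly6g. The 7 genes of the MHC class II list were all lower, with a median of -0.497 and 1 at an unadjusted p under 0.05. That gene was Ctss, a protease that trims the class II chaperone and is no class II molecule, at -0.73 ± 0.27. H2-Ab1 had 10.88, 9.52, 9.67 and 9.45 against 9.17, 9.12, 9.58 and 9.35, and without MYC mouse 1 the list's median was -0.172. The 27 interferon response genes had a median of -0.131, which ran from -0.271 (without MYC/REG3A mouse 3) to -0.021 (without MYC/REG3A mouse 2). Oas2, an RNA sensor, was the 1 at an unadjusted p under 0.05, against the same 4.55%, at -0.57 ± 0.22. The 8 T cell genes had a median of -0.151, which became 0.065 without MYC mouse 1, while Cd3d and Cd4 lay at 3.67 to 4.67 and were not tested. The 12 B and plasma cell genes had 6 higher and 6 lower means with a median of 0.024, and the 4 NK cell genes 2 and 2 with a median of -0.026; without 1 mouse each these medians ran from -0.175 to 0.145 and from -0.078 to 0.104. The 26 inflammatory cytokine and NF-kB genes had a median of -0.26, or -0.07 without MYC mouse 1. Of these genes 22 were lower, 1 at an unadjusted p under 0.05 against the same 4.55%.

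Immediate early genes, which growth factors and stress switch on within minutes, had the lower mean in 18 of 21, 8 at an unadjusted p under 0.05 against 4.55% of all tested genes, and 0 passing. Their median was -0.312. Jun, a subunit of the AP-1 transcription factor, had 8.54, 8.16, 7.79 and 7.67 in the MYC livers and 7.46, 7.07, 7.15 and 6.60 in the MYC/REG3A livers. Atf3, a stress-induced repressor, had 7.82, 6.47, 7.19 and 6.52 against 5.98, 6.01, 6.21 and 5.85. Neither gene overlapped. Fosl2 differed by -0.32 ± 0.09 and Klf2, a flow-induced factor of endothelium, by -0.54 ± 0.16. The list score was highest in MYC mouse 1 at 0.372, and without that mouse the median was -0.193, with 5 genes at that p. The time between death and freezing is not given in the sources used here, and its part in these values was not tested. Hspb1, a small heat shock protein, had 8.58, 7.26, 8.92 and 7.74 against 6.43, 6.77, 7.07 and 7.29. A second Hspb1 row, with a mean of only 4.755, differed by -0.17. The 12 heat shock genes had a median of -0.113.

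**Figure D3:**
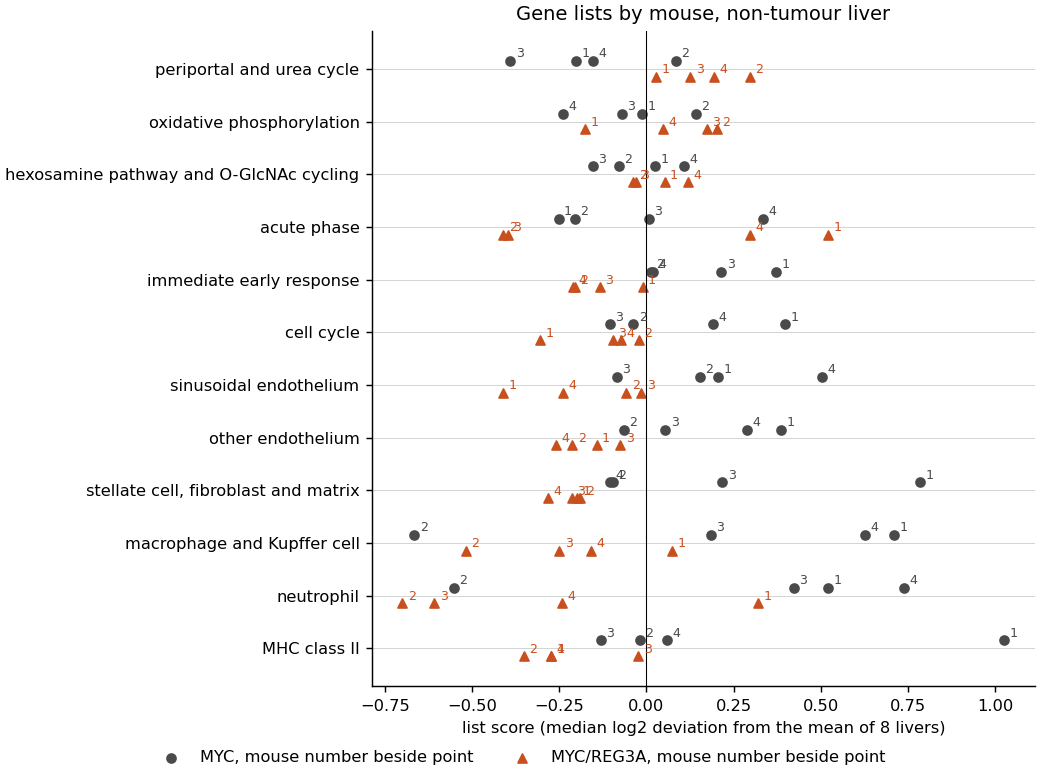
Score of 12 gene lists in each of the 8 non-tumour livers, where a score is the median log2 deviation of the list's tested genes from their mean over the 8 livers (x axis); grey circles are MYC mice, orange triangles MYC/REG3A mice, and digits give the mouse number. MYC mouse 1 is the highest liver in the stellate cell list at 0.784 and in the MHC class II list at 1.03, and MYC mouse 2 is the lowest in the macrophage list at -0.665.

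Cell cycle genes had a median of -0.226 over 23 genes, 20 of them lower, 4 at an unadjusted p under 0.05 against 4.55% of all tested genes. In 5 cell cycle genes the MYC livers lay entirely above the MYC/REG3A livers, against 2.3% of all tested genes. Ccnb2, a mitotic cyclin, had 6.92, 5.97, 5.65 and 6.51 in the MYC livers and 5.05, 5.60, 5.51 and 5.55 in the MYC/REG3A livers. Mki67, the proliferation marker Ki-67, had 7.50, 6.20, 6.21 and 6.90 against 6.09, 6.19, 6.09 and 6.01. The nearest livers of the genotypes were almost level in Mki67. Aurkb, a mitotic kinase, had 6.60, 6.11, 6.05 and 6.30 against 5.87, 5.86, 5.87 and 5.90. Without MYC mouse 1 the median of the list was -0.139, with 3 genes lower at that p. The count was 8 without MYC mouse 2, 6 without MYC mouse 3 and 3 without MYC/REG3A mouse 1, and 4 without each of the other 4 mice.

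Periportal and urea cycle genes pointed the other way. Of 20 tested, 19 had the higher mean in MYC/REG3A livers, 9 at an unadjusted p under 0.05 against 2.74% of all genes, and 0 passed. Their median was 0.313. Slc25a15, the mitochondrial ornithine carrier of the urea cycle, had 10.56, 10.95, 10.44 and 10.79 in the MYC livers and 11.11, 11.05, 11.07 and 11.16 in the MYC/REG3A livers. Uroc1, which breaks down urocanate from histidine, had 10.24, 10.54, 9.87 and 10.17 against 10.56, 10.70, 10.58 and 10.98. In both genes the groups did not overlap, though in Uroc1 the nearest livers were almost level. Gpt, alanine aminotransferase, differed by 0.52 ± 0.21 and Ass1, argininosuccinate synthase, by 0.36 ± 0.14, both with overlap. The list's count at that p ran from 2 (without MYC/REG3A mouse 2 or 4) to 13 (without MYC mouse 2), and its median was 0.204 without MYC mouse 3. Agxt, the peroxisomal enzyme that clears glyoxylate, had 8.02, 9.31, 8.06 and 9.98 against 10.44, 10.33, 9.79 and 10.17.

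Among bile acid genes, Cyp7a1, the rate-limiting enzyme of bile acid synthesis, had 10.18, 12.35, 11.40 and 11.16 in the MYC livers and 12.27, 12.55, 12.48 and 12.39 in the MYC/REG3A livers. MYC mouse 2 lay among the MYC/REG3A livers, and the difference was 1.15 ± 0.37, adjusted p = 0.675. Nr0b2, the receptor SHP that represses Cyp7a1, had 10.65, 9.36, 9.58 and 9.34 against 9.46, 8.75, 9.47 and 8.93. The 19 genes of the list had a median of 0.039, with 1 gene higher at an unadjusted p under 0.05, against 2.74% of all tested genes. Slc27a5, which activates bile acids for conjugation, differed by 0.24 ± 0.11.

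Over all tested genes, 2.74% were higher and 4.55% lower at an unadjusted p under 0.05. Of other hepatocyte programmes, the 22 female-biased liver genes had a median of 0.218, with 16 higher and 1 of these at that p. That median was 0.497 without MYC/REG3A mouse 1, 0.125 without MYC mouse 3 and 0.08 with the clock score as a covariate. The 15 male-biased liver genes had a median of 0.028, with 8 higher and 7 lower, 2 of each at that p. The 25 genes of gluconeogenesis, glycolysis and glycogen had a median of -0.145, with 18 lower and 2 at that p; it was -0.085 without MYC mouse 1, and the count was 6 without MYC mouse 2. The 17 hepatocyte identity genes had a median of 0.028, the 29 complement and coagulation genes of 0.09, with 27 higher, and the 26 oxidative phosphorylation genes of 0.1, with 25 higher and 2 at an unadjusted p under 0.05. The 53 cytochrome P450 and xenobiotic genes had a median of 0.034, 2 higher and 3 lower at that p. Cyp3a11, the main drug-metabolising P450 of mouse liver, had 9.85, 8.95, 9.31 and 8.95 against 7.84, 8.75, 8.60 and 8.55, without overlap. Aox1, an aldehyde oxidase, differed by -0.40 ± 0.15. In lipid metabolism, Srebf1, the regulator of fatty acid synthesis, differed by 0.61 ± 0.24 while the 22 genes of that synthesis had a median of -0.118, which became 0.03 without MYC/REG3A mouse 1. The 14 lipid droplet and uptake genes had a median of -0.202, with 9 lower, and -0.123 without MYC mouse 2. Ebp, a sterol isomerase, differed by 0.30 ± 0.10, with a median of 0.01 over 19 cholesterol synthesis genes. Pdk4, which spares glucose in fasting, differed by -0.85 ± 0.28 and Fgf21, a fasting hormone of liver, by -0.50 ± 0.15. The 25 fatty acid oxidation and PPAR alpha target genes went the other way in most, with 17 higher and 8 lower. Their median was 0.065, with 3 genes lower and 0 higher at that p. Igf1 and Ghr, a growth factor and the growth hormone receptor, differed by 0.26 ± 0.11 and 0.33 ± 0.14. The 19 growth hormone and IGF axis genes were split, with 11 higher and 8 lower and a median of 0.039. Differences in that list ran from -0.788 to 0.327, with 2 higher and 1 lower at that p.

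The hexosamine pathway makes UDP-GlcNAc, from which Ogt puts O-GlcNAc on proteins and Oga takes it off again. None of its 14 tested genes had an unadjusted p under 0.05, and the median was 0.036. Ogt had 9.72, 9.52, 9.73 and 9.71 in the MYC livers and 9.36, 9.49, 9.48 and 9.77 in the MYC/REG3A livers. Its difference was -0.15 ± 0.11 (SE; 95% interval -0.39 to 0.09). Oga had 8.19, 8.09, 8.29 and 8.10 against 7.97, 8.04, 8.44 and 8.31, with a difference of 0.02 ± 0.12. Gfpt1, the entry enzyme of the pathway, had 6.38, 6.36, 6.30 and 6.75 against 6.92, 6.06, 6.10 and 6.70, with a difference near 0 and a 95% interval of -0.46 to 0.45. Gnpnat1 and Gnpda1, which acetylate glucosamine-6-phosphate and deaminate it, had the lowest p of the list, at 0.40 ± 0.20 and 0.44 ± 0.24.

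REG3A has also been described as a scavenger of reactive oxygen in liver, so antioxidant genes were read as a group. Of 23 antioxidant and NRF2 target genes, 13 had the lower mean, 4 at an unadjusted p under 0.05 against 4.55% of all tested genes, and the median was -0.056. The median ran from -0.164 without MYC/REG3A mouse 3 to 0.028 without MYC/REG3A mouse 1, and the count at that p from 1 to 4. The 4 genes were Gpx3, described among the genes of lowest p, Hmox1, heme oxygenase 1, at -0.81 ± 0.34, Sod3, the extracellular superoxide dismutase, at -0.24 ± 0.10, and Gsr, glutathione reductase, at -0.23 ± 0.10. Hmox1, which macrophages also express, had 9.32, 7.49, 8.27 and 8.72 against 7.996, 7.37, 7.77 and 7.42. The 17 glutathione S-transferases had a median of -0.047.

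The clock genes varied widely between mice of one genotype. In the liver clock, ARNTL and CLOCK bind E-boxes (CACGTG) and raise Ciart, Dbp, Tef, Nr1d2 and the Per genes, while DBP and TEF act through D-boxes (TTATGTAA). Arntl transcripts peak when those of these targets are low. Promoter windows of 300 bases around a gene's start, from RefSeq (assembly GRCm38.p6), were searched for both motifs in 5 genes of the Ciart arm. Of these, Ciart and Tef have an E-box and Per3 a D-box, while the windows of Dbp and Nr1d2 hold neither motif. The windows of Ciart and Per3 are printed as 1 example of each motif. Capitals mark the E-boxes in Ciart (chr3:95882179-95882478, minus strand) and the D-boxes in Per3 (chr4:151044616-151044915, minus strand).

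Ciart: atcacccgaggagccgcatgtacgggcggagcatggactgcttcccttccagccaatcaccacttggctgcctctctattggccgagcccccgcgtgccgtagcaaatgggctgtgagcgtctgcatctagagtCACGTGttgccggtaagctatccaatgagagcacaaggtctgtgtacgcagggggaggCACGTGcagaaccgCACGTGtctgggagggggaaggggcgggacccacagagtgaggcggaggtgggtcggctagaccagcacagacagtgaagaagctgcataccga
Per3: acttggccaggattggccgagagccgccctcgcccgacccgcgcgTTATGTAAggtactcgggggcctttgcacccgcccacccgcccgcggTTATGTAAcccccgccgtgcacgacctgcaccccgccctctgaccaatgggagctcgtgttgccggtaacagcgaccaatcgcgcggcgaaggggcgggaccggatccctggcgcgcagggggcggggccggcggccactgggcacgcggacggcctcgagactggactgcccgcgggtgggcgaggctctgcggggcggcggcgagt

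The Ciart window holds 3 E-boxes and the Per3 window 2 D-boxes. Both strands were searched, and the 2 motifs share no letters in these windows. An E-box is in 7.15% of all 32851 windows and a D-box in 0.938%; among windows of tested genes the shares are 9.71% and 0.604%. A match is a run of letters and no measured binding site.

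Ciart, a repressor of the clock, had 7.28, 8.05, 6.44 and 6.03 in the MYC livers and 6.06, 9.22, 8.41 and 8.21 in the MYC/REG3A livers. Arntl had 6.17, 6.22, 7.30 and 7.49 against 7.76, 5.31, 5.88 and 5.77. MYC mice 3 and 4 and MYC/REG3A mouse 1 had high Arntl and low Ciart, and MYC/REG3A mice 2, 3 and 4 the reverse. Dbp had 8.68, 8.70, 8.14 and 8.04 against 7.59, 9.78, 9.15 and 9.42, and Per3 8.35, 8.63, 8.19 and 6.61 against 6.49, 9.22, 8.96 and 8.93. The differences were 1.02 ± 0.65 for Ciart, -0.61 ± 0.52 for Arntl, 0.60 ± 0.42 for Dbp, 0.46 ± 0.63 for Per3, 0.51 ± 0.23 for Nr1d2 and -0.30 ± 0.19 for Clock.

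None of the 16 clock genes had an unadjusted p under 0.05 and the median was 0.098, or 0.281 with 6 higher and 2 lower at that p without MYC/REG3A mouse 1. The median was -0.017 without MYC mouse 4. A clock score, which rises with the Arntl arm and falls with the Ciart arm, was -0.227, -0.415, 0.757 and 1.58 in MYC mice 1 to 4 and 2.06, -1.68, -0.989 and -1.09 in MYC/REG3A mice 1 to 4. The times of day at which the mice were killed are not given in the sources used here. With the clock score as a covariate 0 genes were called, the smallest adjusted p was 0.479 and 1155 genes (8.91%) had an unadjusted p under 0.05.

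**Figure D4:**
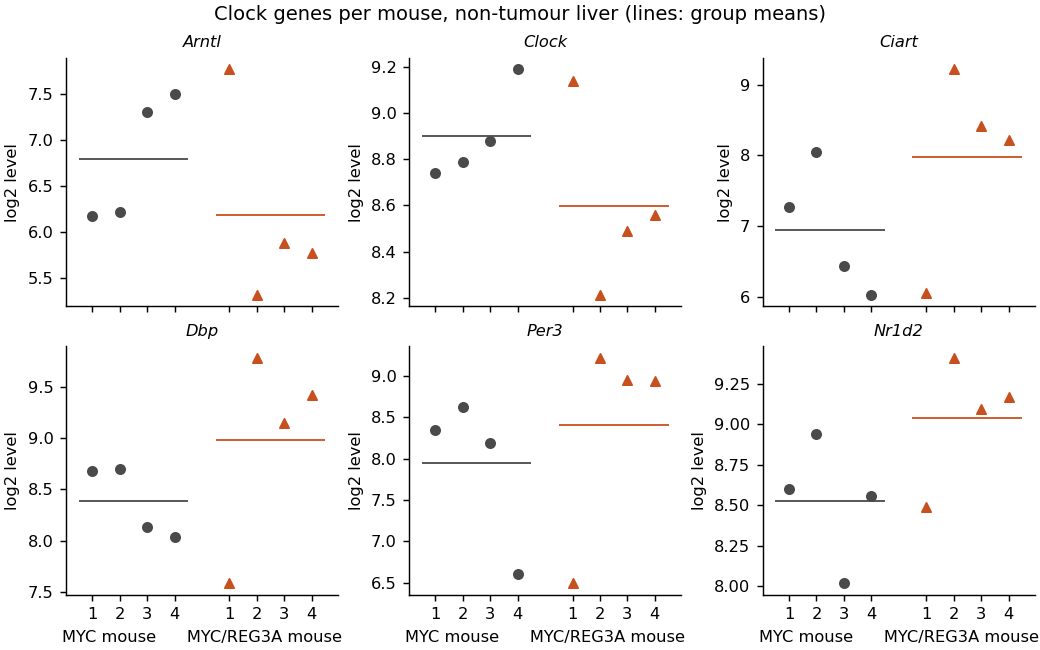
Log2 levels of 6 clock genes in the 8 non-tumour livers, 1 point per mouse (x axis: mouse number; grey circles MYC, orange triangles MYC/REG3A), with a line at each group mean. MYC/REG3A mouse 1, at 7.76 for Arntl and 6.06 for Ciart, lies opposite to the other 3 mice of its group in each panel.

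The largest mean differences came from genes in which a few livers stood far from the rest. Hamp, the iron hormone hepcidin, had 12.71, 12.79, 4.08 and 12.60 in the MYC livers and 12.53 to 12.90 in the MYC/REG3A livers. Its difference of 2.23 ± 1.73 rests on MYC mouse 3 alone. Hamp2, the second hepcidin gene of the mouse, had 6.30, 11.21, 5.34 and 9.06 against 9.40, 11.32, 11.28 and 10.37, a difference of 2.62 ± 1.13. A1bg, a plasma glycoprotein gene that is higher in females, had 8.07, 12.27, 5.06 and 12.29 against 8.54, 11.94, 12.31 and 12.21. Mup-ps12, a pseudogene of the major urinary proteins, had 2.83, 7.27, 3.27 and 3.30 against 4.60, 7.88, 7.67 and 6.69. Rows of this family can share probes. Mup-ps12 exceeded the array medians (4.93 to 4.97) only in MYC mouse 2 and MYC/REG3A mice 2, 3 and 4. This gene thus entered the test mainly through MYC/REG3A livers, where it was high.

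Fabp4, a fatty acid carrier of fat cells, macrophages and endothelium, had 8.44, 6.67, 9.94 and 7.78 against 7.59, 6.46, 6.82 and 5.93, while Adipoq, the fat cell hormone adiponectin, stayed at 3.79 to 3.99. Rgs16, a brake on G protein signalling with a daily rhythm in liver, had 10.02 to 11.04 in the MYC livers and 5.83, 10.01, 10.43 and 9.38 in the MYC/REG3A livers. Saa2, the acute phase protein serum amyloid A2, had 9.43, 11.24, 11.09 and 12.85 against 13.50, 9.15, 8.87 and 13.23. Each genotype held both low and high livers, and the difference was 0.03 ± 1.16. The 23 acute phase genes had a median of 0.045 and no gene with an unadjusted p under 0.05.

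In the tumours of the same mice the comparison between genotypes also had 0 genes passing of 12965 (0%), with 882 (6.8%) at an unadjusted p under 0.05. The difference between the tissues in the effect of the genotype was tested itself, with the mouse as a random block: 0 genes passed (0%), and 754 (5.82%) had an unadjusted p under 0.05. Both comparisons use the same 8 mice, so they are not independent. Of the 945 genes at an unadjusted p under 0.05 in non-tumour liver, 646 (68.4%) had the same sign in tumours, against 57.9% of all tested genes. With the same sign and an unadjusted p under 0.05 in tumours there were 106, which is 11.2% of the 945 and 12% of the 882.

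None of the 20 genes of lowest p was among those 106, and 13 of them had the same sign in tumours. Dusp6 differed by -0.88 ± 0.20 in non-tumour liver and by 0.64 ± 0.31 in tumours. Ube2e2 differed by -0.44 ± 0.09 and 0.68 ± 0.35, Gorasp1 by 0.50 ± 0.08 and -0.16 ± 0.14, and Flt1 by -0.63 ± 0.10 and -0.26 ± 0.17. Atf3 and Lyve1 are outside the 20 and among those 106 genes, so their agreement between tissues comes with the choice. Both had the lower mean in MYC/REG3A mice, at -0.98 ± 0.27 and -0.78 ± 0.23 for Atf3 and at -1.05 ± 0.33 and -0.71 ± 0.23 for Lyve1. In tumours the sinusoidal endothelial list had a median of 0.12, the periportal list of 0.096, the macrophage list of -0.387 and the neutrophil list of -0.602. The immediate early list, to which the text above assigns Atf3, had a median of -0.043 there. Other endothelium had 0.052, the stellate cell list -0.124, the MHC class II list 0.014 and the cell cycle list -0.177.

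**Figure D5:**
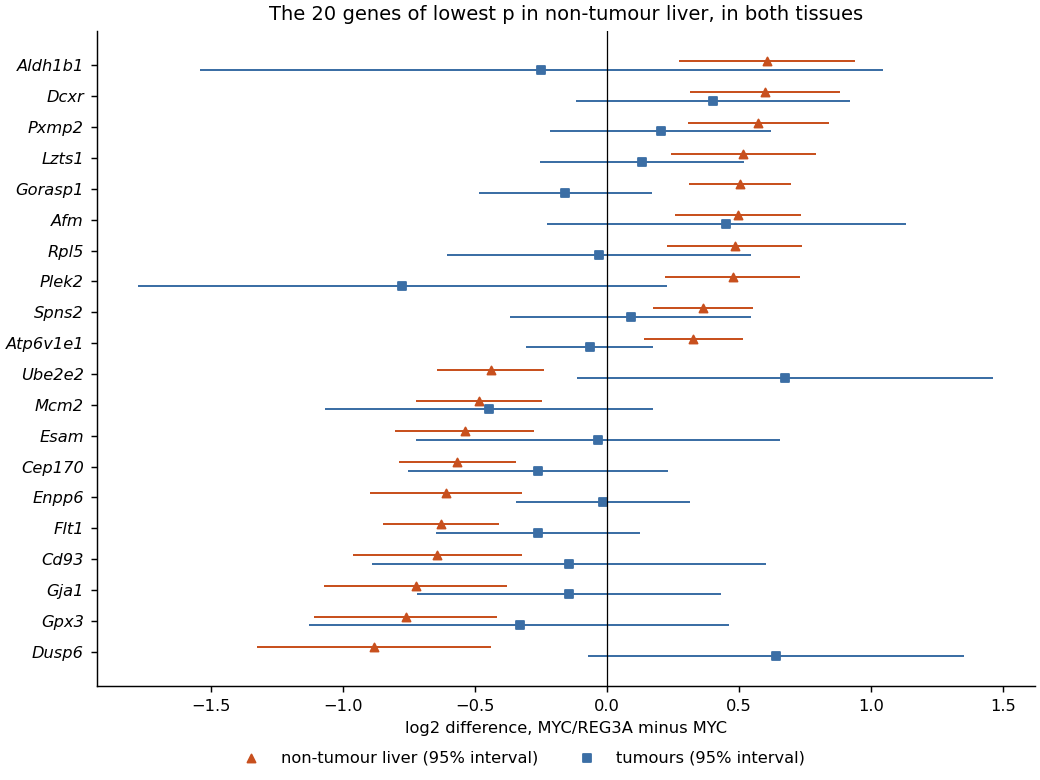
Difference between genotypes (x axis, log2, MYC/REG3A minus MYC) with its 95% interval for the 20 genes of lowest p in non-tumour liver, in non-tumour liver (orange triangles) and in tumours (blue squares). Every orange interval lies on one side of 0, as the choice of genes requires; 13 of the 20 blue squares lie on the same side as the orange triangle.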

How the data were processed

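Expression was measured with a 1-colour mouse Affymetrix array in 16 samples; this comparison used the 8 non-tumour livers, 4 per genotype, whose RNA was extracted with Trizol. The deposited values are log2 levels from RMA, which the authors ran in Affymetrix Expression Console (version 1.4.1 in the submitters' processing notes). RMA equalises the arrays' distributions, so differences are relative to other genes. That the scale is log2 follows from the values' range. No detection calls were used, and precision is limited by the number of arrays.

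Of 41345 rows, 23521 had 1 gene symbol, 1814 several and 16010 none; 23328 matched the RefSeq gene table (GRCm38.p6) by Entrez ID and 0 symbols differed. The row with the highest mean stood for each of 22180 genes (1082 had several rows). Genes above the array median on 4 or more of the 8 arrays were tested (12965; 9215 were put aside). The test was limma 3.58.1 under R 4.3.3 (lmFit and eBayes, 2-sided) over these 8 arrays, with p-values adjusted by Benjamini-Hochberg over all tested genes and a threshold of 0.05, and was checked on simulated data. Whether mice shared a litter is not given in the sources used here, and p-values measure the spread between these mice.

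Gene lists (49, with the REG family, which had no tested gene) were summarised by counts and medians, and only some are given here. Their members, the lists and the rules were chosen with earlier results of these data known. Named were the 10 genes of lowest unadjusted p in each direction, since none passed (predicted models and small RNAs, 3 in all, left out), up to 4 of lowest p per list, and a fixed set (Myc, the REG family, Ogt, Oga, Gfpt1, Alb, Afp, Nnt, Arntl, Dbp, Xist). Agxt, A1bg, Ciart, Clock, Mup-ps12, Per3, Rgs16 and Saa2 fall outside that rule and were chosen after their values were seen. No pair of arrays held identical values (0 pairs).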

Additional observations from a re-analysis of the deposited data

Results flagged for a closer look

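Within each genotype of 4 mice, the highest or lowest liver was set against the other 3 for every gene and list named, 278 groups in all. In 18 of them the gap of 1 liver to the nearest other, as a share of the group's range, exceeded Dixon's 95% critical value; chance gives about 1 in 20.

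Among MYC livers, mouse 2 had 8.17 for Pxmp2 (others 7.80 to 7.82), 6.86 for Gpx3 (7.39 to 7.49), 9.52 for Ogt (9.71 to 9.73) and 7.27 for Mup-ps12 (2.83 to 3.30). Its list score was 0.372 for adipose genes (others 0.054 to 0.102) and -0.534 for erythroid and platelet genes (0.249 to 0.382). MYC mouse 1 had 7.84 for Sod3 (7.58 to 7.61), 7.96 for Trem2, a receptor of lipid-laden macrophages (6.80 to 6.87), and 10.88 for H2-Ab1 (9.45 to 9.67), with an MHC class II score of 1.03 (-0.131 to 0.059). MYC mouse 3 had 9.54 for Atp6v1e1 (9.70 to 9.71) and 4.08 for Hamp (12.60 to 12.79). MYC mouse 4 had 7.55 for Spns2 (7.65 to 7.67).

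Among MYC/REG3A livers, mouse 1 had 5.05 for Ccnb2 (others 5.51 to 5.60), 6.49 for Per3 (8.93 to 9.22) and 8.54 for A1bg (11.94 to 12.31), with a list score of -0.493 over all circadian clock genes (0.189 to 0.288). Mouse 4 had 5.90 for Aurkb, where the other 3 lay at 5.86 to 5.87.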

How the results depend on the processing

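The count of 0 genes passing in non-tumour liver held under all 17 other settings (the other gene filters, every single-symbol row, all 16 arrays in 1 fit, an intensity trend, array weights, equal medians, the clock score, the replicate block and each mouse left out) and under 1 added after seeing the data, without MYC mice 1 and 3, where 480 genes had an unadjusted p under 0.05. Array weights gave 1382 such genes and all 16 arrays 727. The genotypes share replicate numbers but not animals, and the deviations of same-numbered livers correlated at -0.0782, 0.422, -0.272 and 0.139, so the numbers do not pair them. With the replicate number as a block, 0 genes passed in non-tumour liver (1080 at an unadjusted p under 0.05) and 1 in tumours (Lpcat4). In tumours all 16 arrays in 1 fit gave 2 genes, and leaving out each mouse gave 0 to 1. The test between tissues gave 0 throughout.

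Of 1537 values of 91 named genes under these alternatives, 1515 kept their sign and 22, in 8 genes, did not; 0 passed. In fits that left out 1 mouse each, Gfpt1 ran from -0.161 to 0.124, Oga from -0.06 to 0.095, Myc from -0.13 to 0.619, Afp from -0.015 to 0.027 and Saa2 from -0.738 to 0.806. Gfpt1 became 0.001 with equal medians, 0.156 with the clock score, 0.096 without MYC mouse 4, and 0.124 and 0.111 without MYC/REG3A mouse 2 or 3. Oga became -0.02 with the clock score, -0.003 without MYC mouse 2, and -0.06 and -0.018 without MYC/REG3A mouse 3 or 4. Myc became -0.048 with the clock score and -0.13 without MYC/REG3A mouse 2. Per3 became -0.212 with the clock score. Saa2 became -0.44 with array weights, -0.544 without MYC mouse 1, -0.738 and -0.648 without MYC/REG3A mouse 1 or 4, and -0.862 without MYC mice 1 and 3. Afp became -0.015 without MYC mouse 4 and -0.013 and -0.006 without MYC/REG3A mouse 1 or 2. Without MYC mice 1 and 3, Nnt became 0.019 and A1bg -1.03. The causes were not tested. Of 863 list medians, 19 moved by more than the spread between mice, which is the SD of the list's score within groups. Medians near 0 could still change sign. In fits that left out 1 mouse each, the acute phase median ran from -0.177 to 0.163 and the male-biased median from -0.085 to 0.155. Signal over background is not known for single genes.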
